A study of Mus musculus with 12 samples.

Results

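The Slc30 family of zinc exporters, with the synaptic vesicle transporter Slc30a3 among them, was followed in the piriform cortex of mice carrying an expanded huntingtin allele. The members are the 8 genes Slc30a1, Slc30a3, Slc30a4, Slc30a5, Slc30a6, Slc30a7, Slc30a9 and Slc30a10, matched by symbol among the 48795 genes of the deposited count table. They were selected on their log2 fold changes and test results for Q140 against wild type in these same animals, so their values in Q140 against wild type are given as a description and no test is read from them. All 8 passed the filter on low counts that left 17725 genes to test.

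RNA was sequenced from piriform cortex of 12 mice aged 12 months on a C57BL/6 background, each library from 1 animal. In the first group, 6 mice were heterozygous for Q140, a knock-in of an expanded CAG repeat into the endogenous Htt gene, so the allele was carried in every cell from conception and was read from the Htt promoter. In the second group, 6 mice were wild type. Each group held 3 males and 3 females, no mouse is described as treated, and all libraries came from plate 1.

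Zinc is exported from the cytoplasm by Slc30 proteins and brought into it by Slc39 proteins. Slc30a3, also called ZnT3, fills the synaptic vesicles of a subset of glutamatergic neurons of the forebrain with zinc, which is released with glutamate and acts on NMDA receptors and other targets. Slc30a1 removes zinc across the plasma membrane, Slc30a5, Slc30a6 and Slc30a7 serve the early secretory pathway, Slc30a4 serves vesicles, Slc30a9 mitochondria, and Slc30a10 is known mainly as a manganese exporter.

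Libraries held between 19587208 and 35198602 counted reads. Htt itself (chromosome 5, 34761740 to 34912534 on GRCm38) measured 180 to 204 CPM (counts scaled to library size) in wild types and 143 to 164 in Q140 mice, without overlap. Counts per gene cannot show the repeat, so the level of Htt does not by itself check the genotype. By the edgeR test at an adjusted p under 0.05, 6.69% of all genes tested were lower and 4.5% higher. Excitatory neuron markers were lower for 3 of 9 (Slc17a7, Camk2a and Sv2b), and none of the 9 was at 0. Their summed level was 6462 to 8494 CPM in wild types and 5352 to 6013 in Q140 mice. Camk2a weighed most in these sums, with means of 3714 and 2785 CPM. The mean log2 CPM of the 9 overlapped between the genotypes, at 7.09 to 7.79 in wild types and 7.03 to 7.41 in Q140 mice. Oligodendrocyte markers were higher for 3 of 5 (Mog, Mag and Cnp), with sums of 2892 to 4112 and 3404 to 4831 CPM. Of 6 inhibitory markers 1 was lower (Sst), of 5 microglial markers 1 was higher (Tmem119), and none passed among 5 astrocyte, 4 endothelial, 5 meningeal fibroblast, 5 striatal projection neuron and 2 tested of 4 choroid plexus markers. In these bulk samples, fewer cells of a type and less RNA per cell cannot be told apart.

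Slc30a3 (ENSMUSG00000029151) lies on the minus strand of chromosome 5, 31086106 to 31108237, with an inner and an outer start site. Of the 250 bases upstream of each start, part is shown for Slc30a3, the vesicular transporter that differed between the genotypes. The same is shown for Slc30a4, a vesicular exporter whose groups overlapped. Capitals mark TGCNCNC, the core letters of the metal response element to which the zinc sensor Mtf1 binds, on either strand. Bases that GENCODE annotates as exon of any gene were left out. For Slc30a3 these were the 88 bases next to the inner start and the 177 next to the outer start. For Slc30a4 they were the 9 bases farthest from the start, so the stretches are not alike in position.
Slc30a3 inner start, chr5:31093616-31093777, minus strand: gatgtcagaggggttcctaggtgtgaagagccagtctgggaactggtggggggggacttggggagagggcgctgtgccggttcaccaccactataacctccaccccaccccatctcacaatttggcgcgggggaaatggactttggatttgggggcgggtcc
Slc30a3 outer start, chr5:31108422-31108494, minus strand: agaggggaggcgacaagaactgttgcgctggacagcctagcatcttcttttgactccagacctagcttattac
Slc30a4, chr2:122702664-122702904, minus strand: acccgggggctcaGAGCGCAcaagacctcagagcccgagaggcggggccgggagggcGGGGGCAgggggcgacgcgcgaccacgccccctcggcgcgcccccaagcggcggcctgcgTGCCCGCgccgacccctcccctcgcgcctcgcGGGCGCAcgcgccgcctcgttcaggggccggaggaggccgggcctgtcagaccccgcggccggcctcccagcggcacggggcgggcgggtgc

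These windows come from RefSeq on GRCm38.p6, where all 8 members matched, with 9 windows of 250 bases in all. In the full window the inner start of Slc30a3 held 0 copies of the letters, the outer start 1, which fell in the exonic bases left out, and Slc30a4 held 4. Among 32851 mouse windows of this length, 44.4% held at least 1 copy and 1.28% held 4 or more. Of the members' 9 windows 6 held it. Slc30a7 and Slc30a9 also held 0 copies, Slc30a1 and Slc30a5 held 1, Slc30a6 held 2 and Slc30a10 held 3. The CPM of all these genes overlapped between the genotypes. A match describes letters only, and gene counts do not tell the transcripts of the inner and outer start apart.

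Slc30a3 was lower in every Q140 mouse than in any wild type. The wild types 1 to 6 had 216, 207, 246, 198, 205 and 235 CPM. The Q140 mice 1 to 6 had 136, 123, 140, 158, 149 and 175 CPM. The groups did not overlap: the lowest wild type, replicate 4, stood above the highest Q140 mouse, replicate 6. Among the 17725 genes tested, 2.7% had lower Q140 values without overlap. The means were 218 ± 18.9 CPM (SD, n = 6) and 147 ± 18.2 CPM (SD, n = 6). The log2 fold change was -0.57 (SE 0.0796, 95% interval -0.74 to -0.40), a change of -32.6%. The counts behind these levels ran from 3520 to 7125 reads per library, so counting error was small beside the spread between animals.

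**Figure D1:**
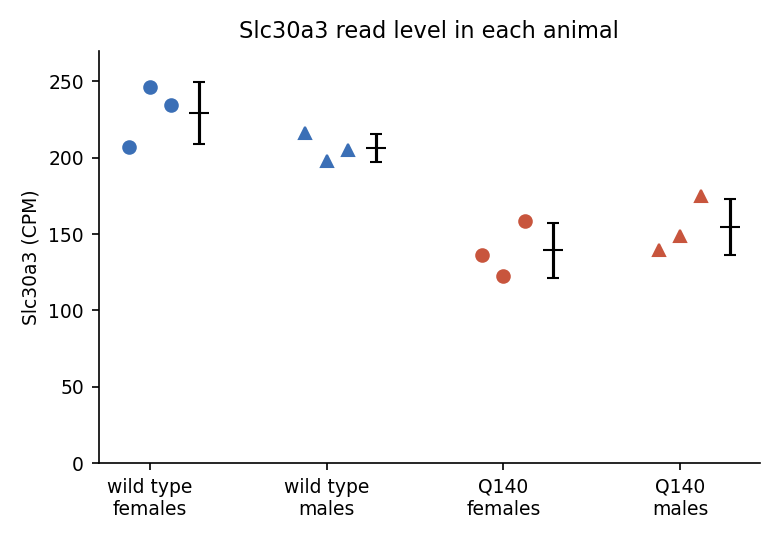
Slc30a3 level (CPM, y axis from 0) in each animal by genotype and sex (x axis), with circles for females, triangles for males and black bars for the mean and SD of 3 animals. All 6 Q140 animals sit between 123 and 175 CPM, below the wild types at 198 to 246 CPM.

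The other plasma membrane and vesicular exporters overlapped between the genotypes. Slc30a1 (ENSMUSG00000037434, chromosome 1, 191906767 to 191913247) ran from 41.6 to 52.6 CPM in wild types, with a median of 48.1, and from 45.2 to 48.7 with a median of 47.8 in Q140 mice. Its log2 fold change was -0.01 (SE 0.0436, 95% interval -0.10 to 0.08). An antisense gene that overlaps it, 1700034H15Rik, had 12.1% of its reads, and the strand setting of the counting is not given in the sources used here. Slc30a4 (ENSMUSG00000005802, chromosome 2, 122681233 to 122702663) ran from 57.7 to 69.2 CPM with a median of 66.9 in wild types and from 56.1 to 68.2 with a median of 63.8 in Q140 mice. Of the 6 Q140 mice 5 were below the wild type mean of Slc30a4, and the log2 fold change was -0.07 (SE 0.0551, 95% interval -0.18 to 0.05).

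The exporters of the early secretory pathway overlapped between the genotypes too. Slc30a5 (ENSMUSG00000021629, chromosome 13, 100802648 to 100833427) had 37.5 to 42.8 CPM in wild types and 39.8 to 47.0 in Q140 mice, a log2 fold change of 0.05 (SE 0.0473). Slc30a6 (ENSMUSG00000024069, chromosome 17, 74395608 to 74424221), the partner with which Slc30a5 forms a heterodimer, had 7.78 to 9.40 and 7.56 to 9.65 CPM, a log2 fold change of -0.03 (SE 0.0769). Slc30a7 (ENSMUSG00000054414, chromosome 3, 115938973 to 116007406), a Golgi transporter, had 21.9 to 27.6 and 23.7 to 25.9 CPM, a log2 fold change of 0.01 (SE 0.0550). In all 3 the Q140 range overlapped the wild type range. The 95% intervals ran from -0.05 to 0.15 for Slc30a5, from -0.20 to 0.13 for Slc30a6 and from -0.11 to 0.13 for Slc30a7.

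Slc30a9 and Slc30a10 overlapped as well, and the wild types fell into high and low animals for Slc30a10. Slc30a9 (ENSMUSG00000029221, chromosome 5, 67306955 to 67358443) had 150 to 157 CPM in wild types and 149 to 162 in Q140 mice, a log2 fold change of 0.03 (SE 0.0337, 95% interval -0.04 to 0.10), the narrowest interval of the 8 members. Slc30a10 (ENSMUSG00000026614, chromosome 1, 185454848 to 185468762) stood at 25.9 CPM in wild type 4, at 25.8 CPM in wild type 6 and no higher than 18.3 CPM in the remaining 4, the lowest having 16.6 CPM. The Q140 mice had 14.5 to 20.8 CPM of Slc30a10, within the span of the wild types except for 2 animals below it. Its log2 fold change was -0.17 (SE 0.127, 95% interval -0.45 to 0.10). The lincRNA gene Gm2061, on the other strand at the start of Slc30a10, had 12.4% as many reads as Slc30a10.

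Of the 8 members 1, Slc30a3, passed the adjusted threshold of 0.05 (edgeR quasi-likelihood test with Benjamini-Hochberg adjustment), beside 11.2% of all genes tested in either direction and 6.69% in the lower direction. The count follows from how the members were chosen and is not read further. The median log2 fold change was -0.02 over the 8 members and 0.0045 over all genes tested. Within the 7 other members the log2 fold changes ran from -0.17 to 0.05. Among the Slc30 genes outside the 8, Slc30a2 had 7 reads over 2 wild types and 32 over 5 Q140 mice, and Slc30a8, the zinc transporter of insulin granules, had 0 and 1 reads. Both were too low to test, and 3 reads in the deepest library stand for 0.0852 CPM.

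**Figure D2:**
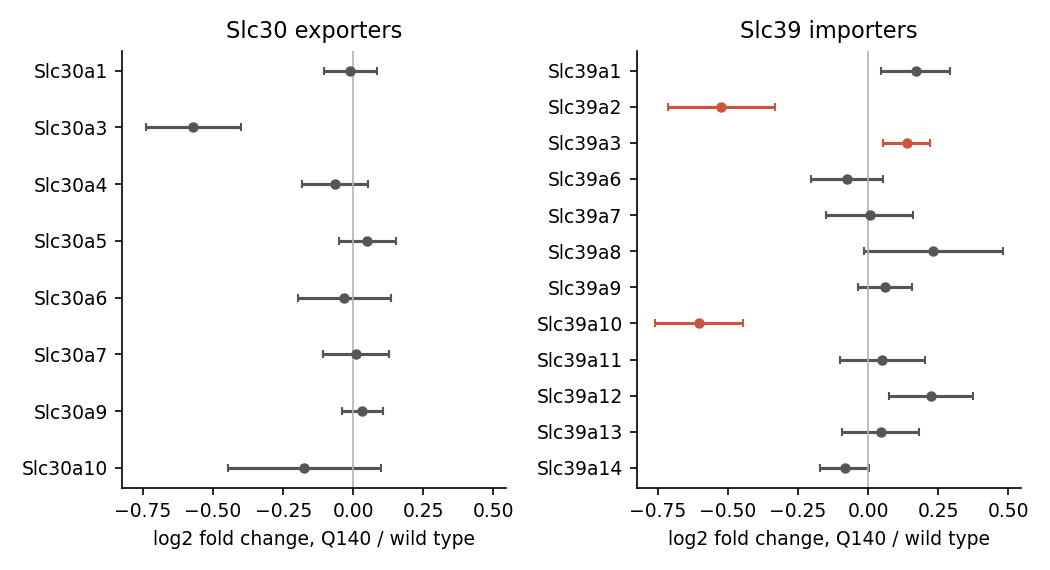
Log2 fold change of Q140 against wild type (x axis) with its 95% interval for the 8 Slc30 exporters (left) and the 12 tested Slc39 importers (right). Among the importers red marks an adjusted p below 0.05. Slc30a3, at -0.57, stands apart from the other 7 exporters at -0.17 to 0.05, and Slc39a10 and Slc39a2 lie at -0.60 and -0.52.

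Per transcript length, Slc30a3 was the most abundant member in every animal of both genotypes. Its mean deposited FPKM (fragments scaled to transcript length and to library size) was 75.5 ± 5.77 (SD, n = 6) in wild types and 52.7 ± 6.96 (SD, n = 6) in Q140 mice. In wild types the order then ran through Slc30a5 at 12.6, Slc30a9 at 12.1, Slc30a4 at 11.8, Slc30a1 at 8.92, Slc30a6 at 4.00, Slc30a10 at 3.39 and Slc30a7 at 2.16 FPKM. The order was the same in Q140 mice. On this scale, which has no correction for library composition, Slc30a9 did not overlap either, though its CPM ranges did. Its highest wild type had 12.475 and its lowest Q140 mouse 12.478 FPKM. The share of all genes without overlap in FPKM was not computed, so nothing is read from this. Slc30a9 passed the threshold in none of the alternatives, limma on log2 FPKM included. Neighbours in this order whose ranges overlapped, in both genotypes, were Slc30a5 with Slc30a9, Slc30a9 with Slc30a4, and Slc30a6 with Slc30a10. Within an animal, Slc30a5 stood above Slc30a9 in 5 of 6 wild types and 5 of 6 Q140 mice. Slc30a9 stood above Slc30a4 in 3 of 6 and 5 of 6, and Slc30a6 above Slc30a10 in 4 of 6 and 6 of 6. The other neighbours did not overlap. These levels rest on the authors' lengths, which the tables imply to be 2834 bases for Slc30a3 and 12374 for Slc30a9.

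**Figure D3:**
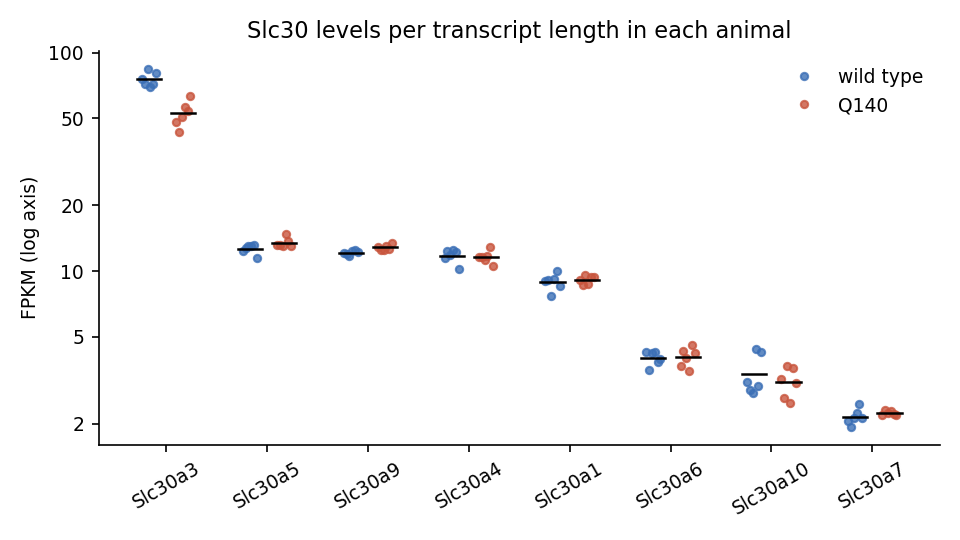
FPKM on a log axis (y) for each of the 8 exporters (x) in each wild type (blue) and Q140 (red) animal, with black lines for the mean of 6. Slc30a3 lies above every other member in both genotypes. The colours do not overlap for Slc30a3, with the lowest wild type at 69.3 and the highest Q140 animal at 63.4 FPKM.

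Slc30a3 supplied 57.8% ± 2.63 (SD, n = 6) of the summed FPKM of the 8 exporters in wild types, with a range of 54.5 to 61.2%. In Q140 mice it supplied 48.1% ± 3.13 (SD, n = 6), with a range of 44.0 to 53.1%. The 7 others summed to 55.0 ± 2.06 FPKM (SD, n = 6) in wild types and 56.5 ± 1.36 FPKM (SD, n = 6) in Q140 mice. The share of Slc30a3 did not overlap between the genotypes, whereas the sums of the others did, at 52.8 to 57.9 and 55.2 to 59.1 FPKM.

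Sex was a contrast that played no part in the choice of the members. None of the 8 passed between males and females (edgeR quasi-likelihood test with genotype as a covariate), beside 0.654% of all genes tested. None reached an unadjusted p under 0.05, and DESeq2 also called none. The log2 differences of males against females ran from -0.04 for Slc30a5 to 0.16 for Slc30a10. The smallest p was that of Slc30a1, with means of 45.9 CPM in females and 48.8 in males and a log2 difference of 0.09 with an SE of 0.0436 and an edgeR adjusted p of 0.387. For Slc30a3 the difference was 0.00 (SE 0.0794, 95% interval -0.17 to 0.17), with 184 CPM in females and 180 in males. The widest interval, -0.11 to 0.44, was that of Slc30a10.

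Whether the Q140 difference itself depended on sex was tested as an interaction. None of the members passed by edgeR, where 0% of all genes tested did, none had an unadjusted p under 0.05, and DESeq2 called 0 of the members and 23 of all genes. Slc30a3 had 229 ± 20.3 CPM (SD, n = 3) in wild type females and 139 ± 18.0 (SD, n = 3) in Q140 females, a log2 fold change of -0.72. The log2 fold change was -0.42 in males, between 206 ± 9.18 (SD, n = 3) and 154 ± 18.3 CPM (SD, n = 3). The difference of 0.30 (SE 0.142, 95% interval -0.01 to 0.61) gave an adjusted p of 0.553 by edgeR. The 2 Q140 mice lowest in Slc30a3, replicates 1 and 2, were both females, and their names lack the prefix that the other animals carry. Slc30a7 had log2 fold changes of 0.10 in females and -0.08 in males, a difference of -0.19 (95% interval -0.40 to 0.03, adjusted p = 0.586 by edgeR).

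The animals' names begin with different letter prefixes whose meaning is not given in the sources used here, and the prefixes are spread unevenly over the genotypes. Among animals named RFckQ, 4 wild types had 205 to 246 CPM of Slc30a3 and 1 Q140 mouse had 158, a log2 ratio of -0.46. Among animals named RFQ, 1 wild type had 198 and 3 Q140 mice had 140 to 175 CPM, a log2 ratio of -0.36. The single animal named FMQ was a wild type with 235 CPM, and the 2 with no prefix were Q140 mice with 123 and 136 CPM. With the prefix as a term in the fit, the log2 fold change of Slc30a3 was -0.43 (SE 0.0934), and no member passed the threshold. Wild types 4 and 6, high in Slc30a10, are the 2 that are not named RFckQ.

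The Slc39 importers, which move zinc the opposite way, held 12 tested genes of 14. Of these 1 was higher and 2 were lower, and 9 did not pass, beside 4.5% of all genes higher and 6.69% lower. The median log2 fold change of the list was 0.05. Slc39a10, a plasma membrane importer and the most abundant of the list at 41.6 FPKM in wild types, fell. Wild types had 225 to 291 CPM of Slc39a10 and Q140 mice had 140 to 187, without overlap. Its log2 fold change was -0.60, with an SE of 0.0740 and an edgeR adjusted p of 0.00028, and it passed in 22 of 23 alternatives. Slc39a2 fell by 0.52 on the log2 scale, with an SE of 0.0891, an edgeR adjusted p of 0.0025 and 12.2 to 18.8 CPM in wild types and 8.99 to 13.8 in Q140 mice. The only wild type of Slc39a2 that reached into the Q140 range was replicate 4, at 12.2 CPM. With the name prefix as a term, Slc39a10 still passed and Slc39a2, at -0.48, did not (adjusted p = 0.119 by edgeR).

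Slc39a3 rose by 0.14 on the log2 scale, with an SE of 0.0391 and an edgeR adjusted p of 0.037. The wild type mean was 70.4 CPM (SD 3.51, n = 6) and the Q140 mean 77.4 CPM (SD 3.73, n = 6). It passed in only 9 of 23 alternatives. Its call was lost in turn without wild type 1, 2, 3, 4 or 5 and without Q140 mouse 2 or 3, where the adjusted p reached 0.0948. It was also lost without the sex covariate, without the low-count filter and with the excitatory marker mean or the name prefix as a term, where the edgeR adjusted p with the prefix was 0.336. The importers below the threshold ran from -0.08 for Slc39a14 to 0.23 for Slc39a8. Slc39a4 and Slc39a5 were too low to test, at no more than 0.551 CPM in any animal.

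Genes that buffer or sense zinc did not pass. Of the 4 tested of 5, Mt1 and Mt2, metallothioneins that Mtf1 induces when zinc rises, had log2 fold changes of 0.12 and 0.15, Mt3, the neuronal metallothionein, 0.08, and Mtf1 -0.02. The smallest p of the list was that of Mt2 (SE 0.0868, adjusted p = 0.301 by edgeR). Without Q140 mouse 5 its log2 fold change was 0.23 and it passed (adjusted p = 0.0298 by edgeR). At unadjusted p under 0.05 the count of the list was also 0.

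Among the 10 genes of zinc-containing vesicles, all tested, 1 fell, beside 6.69% of all genes lower. Slc17a7, which loads glutamate into the same vesicles, had 1712 to 1967 CPM in wild types and 1254 to 1608 in Q140 mice, without overlap. Its log2 fold change was -0.34, with an SE of 0.0613 and an edgeR adjusted p of 0.0033, and it did not pass with the name prefix as a term (adjusted p = 0.132). The chloride transporter Clcn3, the 7 adaptor complex AP-3 subunits that help to route Slc30a3 to vesicles, and the vesicular zinc protein Tmem163 did not pass, with log2 fold changes from -0.18 for Tmem163 to 0.10 for Ap3m1. The median of the list was -0.03.

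Known targets of synaptic zinc were lower for 4 of 6 tested genes and none was higher, beside 6.69% of all genes lower and 4.5% higher. Grin2a, the NMDA receptor subunit with the highest zinc affinity, fell by 0.28 on the log2 scale, with an SE of 0.0535 and an edgeR adjusted p of 0.0047, from 143 to 157 CPM in wild types to 107 to 132 in Q140 mice. Grin2b fell by 0.35 (SE 0.0992, adjusted p = 0.038), Shank3, a postsynaptic scaffold that binds zinc, by 0.21 (SE 0.0614, adjusted p = 0.040), and Grin1 by 0.17 (SE 0.0439, adjusted p = 0.024), all by edgeR. Grin2a passed in 22 of 23 alternatives, Grin1 in 11, Shank3 in 8 and Grin2b in 6. Grin2b lost its call without any one of wild types 1 to 5 or Q140 mice 1, 2, 3, 4 or 6, Shank3 without wild type 1, 4, 5 or 6 or Q140 mouse 2, 3, 4 or 6, and Grin1 without wild type 1, 2 or 3 or Q140 mouse 1 or 2. Ntrk2 and Shank2 did not pass, at -0.12 and -0.08. The median of the list was -0.19. The cause of these differences was not tested. In the same animals the summed excitatory neuron markers given above were lower, whereas the mean log2 CPM of the markers overlapped between the genotypes. With the mean of those markers as a term in the fit, Grin2a, at -0.28, still passed, and Grin1, Grin2b and Shank3, at -0.17, -0.26 and -0.23, did not. With the name prefix as a term those 3 did not pass either, with edgeR adjusted p of 0.427, 0.180 and 0.134. Over all 4 zinc lists, 7 genes were lower and 1 higher by edgeR, whereas limma on log2 FPKM, which has no correction for library composition, called 4 lower and 4 higher with either pseudocount.

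Slc30a3 was compared with Slc17a7 within each animal, since both act on the same vesicles. The log2 ratio of Slc30a3 to Slc17a7 was -3.07 ± 0.0482 (SD, n = 6) in wild types. It was -3.30 ± 0.101 (SD, n = 6) in Q140 mice. The highest Q140 value, -3.20, lay below the lowest wild type value, -3.14, and the difference in means was -0.23. Relative to the mean log2 CPM of the 9 excitatory markers, Slc30a3 was 0.30 lower in Q140 mice on the log2 scale, but there the ranges overlapped, at 0.08 to 0.59 in wild types and -0.19 to 0.15 in Q140 mice. With that marker mean as a term in the fit, the log2 fold change of Slc30a3 was -0.46 (SE 0.0862). Both values use the genotype contrast by which Slc30a3 was chosen and are descriptions.

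**Figure D4:**
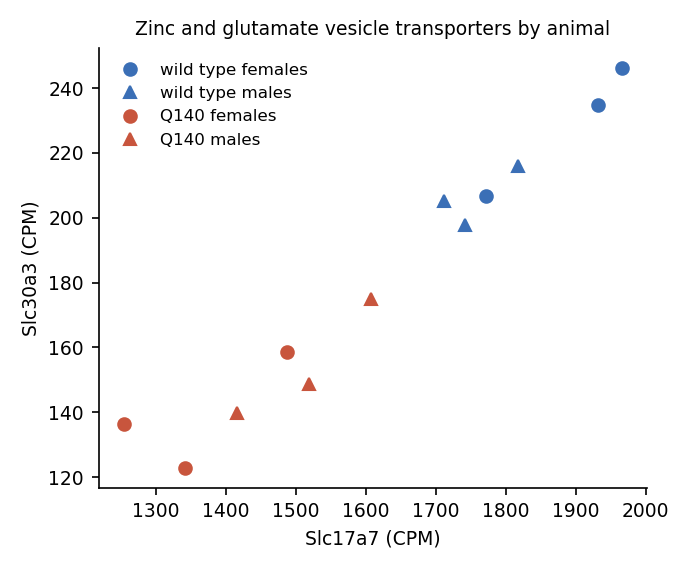
Slc30a3 (y axis, CPM) against Slc17a7 (x axis, CPM) in each of the 12 animals, with blue for wild types, red for Q140, circles for females and triangles for males. Neither axis starts at 0. Wild types lie at the upper right, above 1700 CPM of Slc17a7, and Q140 animals at the lower left.

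Over the 12 animals, the genes whose log2 CPM followed Slc30a3 most closely, among 15486 tested genes with a mean of at least 1 CPM, were Olfm1 (Pearson r = 0.98), Rapgefl1 (0.97), Fmn1 (0.97), Slc17a7 (0.97) and Susd2 (0.97). All 12 points share the genotype difference, and each library's values share its depth. After the means of genotype and sex were removed, the closest were Trdn (0.97), Emx1 (0.93), Nipsnap1 (0.93), Olfm1 (0.91) and Prmt7 (0.91), and Slc17a7 was at 0.88. Olfm1 was in both sets. After that removal the 7 other exporters ran from -0.48 for Slc30a4 to 0.34 for Slc30a9, which ranked 3734 among the 15486 genes. These are descriptions over 12 animals with no test.

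Slc30a3 and Htt share chromosome 5, where the Slc30a3 locus ends 3.65 Mb before Htt begins, and Slc30a9 lies 32.4 Mb beyond Htt. Within 500 kb of Slc30a3, 41 other genes were tested, of which 3 were higher and 5 lower, or 19.5%. The 5 lower include Gm9924, which lies inside Slc30a3. By limma on log2 FPKM, 5 of the 41 were higher and 4 lower, with either pseudocount. Between Slc30a3 and Htt, 2 of 69 tested genes were higher and 9 lower, or 15.9%. Trim54 and Mrpl33 passed the threshold and count in both stretches. On the whole of chromosome 5 the share was 11.9% of 1204, and among all genes 11.2%. No test of these shares was made. A heterozygous animal carries the Q140 allele together with the sequence linked to it, so that an effect of the allele and one of linked sequence cannot be told apart.

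The gene nearest to Slc30a3 without overlapping it in the direction of Htt, Trim54, a muscle RING finger protein, had the largest difference among the 41. It lies at 31116712 to 31137630, 8.5 kb from Slc30a3. Wild types had 7.45 to 9.30 CPM and Q140 mice 1.29 to 4.17, which gave a log2 fold change of -1.69 with an SE of 0.204 and an edgeR adjusted p of 0.00026. Abhd1, at 30950066 to 30955091, differed in the other direction, with 2.66 to 4.23 CPM in wild types and 5.97 to 8.57 in Q140 mice (log2 fold change 1.15, SE 0.123, adjusted p = 0.00012 by edgeR). Both differed without overlap, as did the neighbours Gm9924, Atraid, Gm9899 and Mrpl33 described below, whereas Cenpa and Dpysl5 overlapped. Among all genes tested 2.7% were lower in Q140 mice without overlap, and the share higher was not computed. Gm9924, a gene that GENCODE lists without an established biotype, at 31094984 to 31097294 inside Slc30a3 on the opposite strand, fell by 0.69 (SE 0.159, adjusted p = 0.014 by edgeR). It did not pass with the name prefix as a term (-0.55, adjusted p = 0.306 by edgeR) or with the excitatory marker mean (-0.61, adjusted p = 0.119), nor without Q140 mice 1 and 2 or wild types 3 and 6. Its reads came to 0.706% of those of Slc30a3. Without the strand setting, reads of the pair cannot be told apart. The same holds where Abhd1 overlaps Preb, Atraid overlaps Slc5a6 and Gm9899 overlaps Kcnk3, each on the opposite strand. Preb, with 67.8 to 72.4 CPM in wild types and 64.4 to 70.1 in Q140 mice, did not pass.

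The other neighbours past the threshold were Cenpa, the centromeric histone, at -0.71 (SE 0.118), Atraid at -0.20 (SE 0.0373), Gm9899 at -0.22 (SE 0.0592), the collapsin response mediator Dpysl5 at 0.28 (SE 0.0715) and the mitochondrial ribosomal protein gene Mrpl33 at 0.32 (SE 0.0683), with edgeR adjusted p from 0.0022 for Cenpa to 0.032 for Gm9899. With the name prefix as a term only Trim54 and Abhd1 of the 41 passed, and Cenpa was at -0.51 (adjusted p = 0.203 by edgeR). Atraid and Mrpl33 lost their calls with that term, with the excitatory marker mean and without Q140 mice 1 and 2, with adjusted p up to 0.0949 and 0.109 by edgeR. Dpysl5 lost its call in the same fits, without wild types 3 and 6, and without Q140 mouse 2 or 3, with an adjusted p of 0.435 by edgeR under the prefix. Gm9899 passed in only 9 of 23 alternatives, and lost its call in turn without wild type 1, 3, 5 or 6 or Q140 mouse 1 or 2. Trim54 and Abhd1 passed in 22 of 23.

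**Figure D5:**
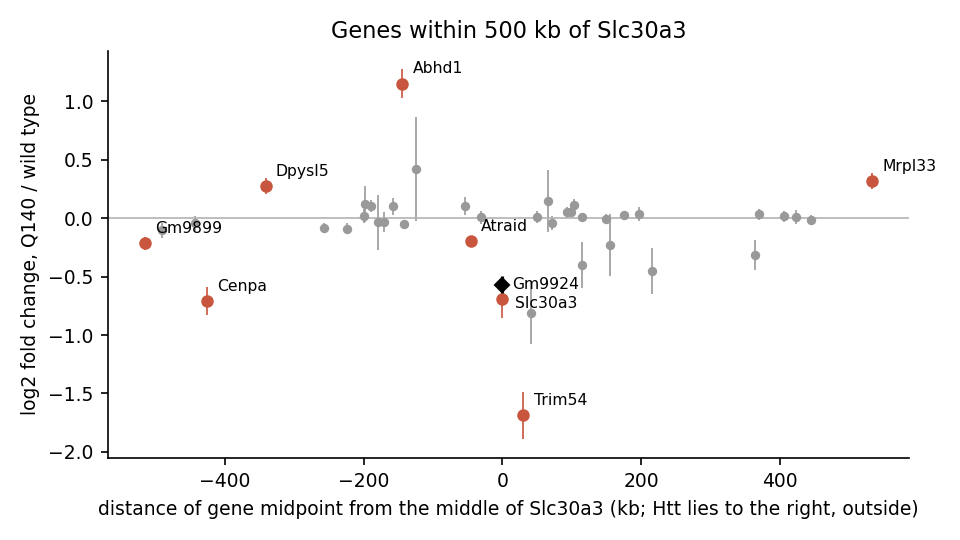
Log2 fold change of Q140 against wild type (y axis, bars for the SE) of the 41 tested genes with any part within 500 kb of Slc30a3, by the distance of their midpoint from the middle of Slc30a3 (x axis, kb, Htt to the right). Red marks the 8 genes with an adjusted p below 0.05, grey the others and the black diamond Slc30a3 at -0.57. Trim54 at -1.69 and Abhd1 at 1.15 lie farthest from 0.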

How the data were processed

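RNA was sequenced from piriform cortex of 12 mice, 6 of each genotype, numbered here within a genotype only to name them. A Qiagen RNeasy extraction and a stranded Illumina TruSeq preparation were used, per the labels' protocols. Reads were processed with STAR 2.7.5c, HTSeq 0.12.3 and SAMtools 1.10 on GRCm38/mm10, per the submitters' processing notes. The strand setting and annotation release were not given in the sources used here. The deposited count table holds unnormalized whole-number counts per gene. The deposited FPKM table follows from the same counts, gene lengths and column totals (largest coefficient of variation of the implied length 5.32e-09 over 15054 genes) and has no correction for library composition.

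The quasi-likelihood test of edgeR 4.0.16 (R 4.3.3) was applied to counts that passed the edgeR filter by genotype, with TMM normalization and sex as a covariate. The interaction was a contrast in a model of the 4 genotype and sex groups. P-values were two-sided and adjusted over 17725 genes by the Benjamini-Hochberg method, with a threshold of 0.05, and intervals are 95% intervals. CPM used TMM-scaled library sizes, and correlations used log2 CPM with a prior count of 2. The TMM factors ran from 0.970 to 0.996 in wild types and from 0.998 to 1.035 in Q140 mice, without overlap. This scaling thus lowers Q140 values relative to wild types, and FPKM lacks it. Totals of 19587208 to 35198602 reads put 3 reads at 0.153 CPM in the shallowest library. Intervals cover the spread between animals. On simulated counts with 200 changed genes, each above 1 CPM, the genotype fit recovered 77% of 1.5-fold and 100% of 2-fold changes. The interaction fit recovered 39% and 73%. Of the 187 calls of the genotype fit, 10 were false. The simulation held no difference by name prefix, so these shares need not hold for the animals here.

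Alternatives were DESeq2 1.42.0, RLE size factors, no filter, no sex covariate, the name prefix or the excitatory marker mean as a term, limma 3.58.1 on log2(FPKM + 0.1) and log2(FPKM + 1), and leaving out each animal. Leaving out wild types 3 and 6 or Q140 mice 1 and 2, and a fit by the number in the animals' names, were added after the data were seen. The members, the 4 zinc lists, the 9 marker lists and these tests were chosen with earlier results of these data known. Named genes are all members, up to 4 per zinc list past the threshold or else the one with the smallest p, neighbours past the threshold up to 8, and the 5 genes most correlated with Slc30a3. Further list members were named after their values were seen. Positions come from GENCODE M21, which matched 48435 identifiers.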

Additional observations from a re-analysis of the deposited data

Results flagged for a closer look

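Of 50 groups of 6 animals examined over the members, the named list genes and the named neighbours, 5 had an animal whose gap to the nearest of the others was a large part of the group's log2 CPM range. Chance gives about 1 in 20. None of the 5 was a Slc30 exporter. In Slc39a2, wild type 4 was low at 12.2 CPM against 16.02 to 18.8 in the others (gap 0.633 of the range). In Shank3, wild type 6 was high at 277 CPM against 228 to 238 (0.771). In Mt2, wild type 4 was high at 60.0 CPM against 50.1 to 52.6 (0.729). In Dpysl5, Q140 mouse 2 was high at 46.0 CPM against 34.1 to 38.1 (0.629). In Gm9899, wild type 2 was low at 12.4 CPM against 13.1 to 13.5 (0.680).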

How the results depend on the processing

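The number in the animals' names, whose meaning is not given in the sources used here, was shared by both genotypes for 2 numbers and 5 animals. Deviations from the sex and genotype fit correlated at -0.32 to 0.056 over genes between same-numbered animals of different genotype. These few pairs cannot decide whether the number marks a shared source, since removing group means itself pushes such correlations towards negative values. The main fit did not use the number. With the number as a replicate block, which left 3 residual degrees of freedom and called 1 of all genes, 0 members, 0 genes of the zinc lists and 0 neighbours passed, and the log2 fold change of Slc30a3 was -0.53. Slc30a3 kept its direction in all 23 alternatives, with log2 fold changes from -0.63 to -0.43, and from -0.63 to -0.52 when 1 animal was left out. Of the 8 members 1 passed in 21 alternatives, and 0 with the block or with the name prefix as a term. Each animal left out in turn gave 1. All these fits reuse the contrast by which the members were chosen, so they are descriptions and no test is read from them. In the comparisons between the sexes and of the Q140 effect between the sexes, 0 members passed in each of 17 alternatives. The zinc lists had 8 genes past the threshold of 32 tested. That count was 2 with the name prefix, 4 with the excitatory marker mean and 4 without wild types 3 and 6. With 1 animal left out it ran from 4 to 12: 12 without Q140 mouse 5 (7 lower, 5 higher, against 7 and 1 with all animals), 4 without Q140 mouse 2 or wild type 1, and 5 without Q140 mouse 3 or wild type 2, 3 or 5. Of the neighbours of Slc30a3, 8 passed. That count was 2 with the name prefix, 3 with the excitatory marker mean, 3 without Q140 mice 1 and 2, and 5 without wild types 3 and 6, and ran from 6 to 9 with 1 animal left out. Fits without animals had fewer samples; for the terms, the cause was not tested. No value changed sign past the threshold. Slc30a2 and Slc30a8 had too few reads to test. The prefix is unevenly spread over the genotypes, so its term and genotype share much of their information.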
